A study of Mus musculus with 6 samples.

Results

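The microRNAs (miRNAs) miR-199a, miR-199b and miR-214 were examined in small RNA libraries of exosomes, the small vesicles that cells release, from the medium of bone marrow-derived macrophages. The rule named 5 rows of the count table by miRNA and arm, mmu-miR-199a-5p, mmu-miR-199a-3p, mmu-miR-199b-5p, mmu-miR-199b-3p and mmu-miR-214-3p, which are written below without the mouse prefix. All 5 were among the 707 rows of the table. Both miR-199 3p rows held the same counts in all 6 libraries and are counted once here as miR-199-3p, which leaves 4 distinct rows. The 3 libraries of the mutant group carried the Roquin-1 san:san genotype, which is homozygous for the sanroque allele of the RNA-binding protein Roquin-1, and the 3 libraries of the other group were wild type (WT). All were of the C57BL/6 strain, and the labels give neither treatment nor age nor the number of mice or cultures behind a library. The p-values below therefore cover differences among these libraries, and that spread may be a technical one. Exosomes from a macrophage culture can also hold vesicles of other cells in that culture, and fewer vesicles of a kind cannot be told apart from less RNA per vesicle.

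A miRNA hairpin is cut into a duplex of a 5p and a 3p arm, of which the favoured arm is loaded into an Argonaute protein and represses messenger RNAs that pair with its seed, bases 2 to 8. miR-199 and miR-214 are abundant in fibroblasts and other mesenchymal cells and scarce in most blood cells. The miR-199a-2 and miR-214 hairpins are made from a shared long noncoding transcript, Dnm3os, which mice need for normal skeletal development.

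The sequences show which rows can share reads and which cannot. RefSeq (GRCm38.p6) mature entries matched 4 of the 5 names, all but miR-199b-5p. The lines give the mature arms 5′ to 3′ with the seed in capitals.
miR-199a-5p: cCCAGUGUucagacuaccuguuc
miR-199a-3p: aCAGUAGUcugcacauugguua
miR-199b-3p: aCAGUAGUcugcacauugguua
miR-214-3p: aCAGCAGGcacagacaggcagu
miR-199a-3p and miR-199b-3p were the same 22 bases, with 0 mismatches, so a 3p read cannot be given to a hairpin. miR-214-3p shared neither seed with miR-199. Counted from the 5′ end, its first 8 bases differed from those of miR-199-3p by U5C and U8G. The seed of miR-214-3p is also that of miR-761 in RefSeq, which was not analysed here.

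The 4 hairpins are shown because their positions and near-identity set how the arms can be compared. The mature arms that RefSeq annotates are in capitals.
Mir199a-1: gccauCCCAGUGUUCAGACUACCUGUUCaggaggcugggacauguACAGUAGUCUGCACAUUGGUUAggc
Mir199a-2: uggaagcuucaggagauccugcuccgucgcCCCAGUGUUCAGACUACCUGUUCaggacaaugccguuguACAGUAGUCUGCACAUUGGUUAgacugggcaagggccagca
Mir199b: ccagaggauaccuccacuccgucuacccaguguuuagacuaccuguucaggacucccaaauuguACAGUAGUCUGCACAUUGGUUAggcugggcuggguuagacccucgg
Mir214: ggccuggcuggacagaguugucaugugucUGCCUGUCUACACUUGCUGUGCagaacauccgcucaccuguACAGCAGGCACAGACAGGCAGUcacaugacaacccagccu
In GRCm38, Mir199a-1 lies on the minus strand at chr9:21496495-21496564, inside an intron of Dnm2 and opposite to it. Mir199a-2 lies on the plus strand at chr1:162217814-162217923 and Mir214 on the plus strand at chr1:162223368-162223477, with 5444 bases between them. GENCODE M21 places both in exons of Dnm3os, antisense to an intron of Dnm3. Mir199b lies on the plus strand at chr2:32318460-32318569, antisense to an intron of Dnm1. miR-199a-5p matched the Mir199b hairpin with 1 mismatch, C10U, counted from the 5′ end of miR-199a-5p and outside the seed. miR-199a-5p and miR-199b-5p thus rest on a single base to be told apart, and the number of mismatches that the authors' alignment allowed is not stated in the labels or file headers.

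The san:san libraries held between 126098 and 185901 miRNA counts and the WT libraries between 12447 and 28884, so each san:san library was deeper than each WT library. A single count was worth 5.38 to 7.93 CPM (counts scaled to a common library total) in san:san and 34.6 to 80.3 CPM in WT. Macrophage and other blood-cell miRNAs (8 of 8 listed names in the table, miR-142a-3p, miR-223-3p and miR-21a-5p among them) held 10.4% to 12.0% of counts in san:san and 5.23% to 6.19% in WT. The names of this list differed unequally in the edgeR test described below. miR-142a-3p was higher in san:san by log2 2.65, miR-342-3p by 1.87, miR-21a-5p by 1.15, miR-142a-5p by 0.96 and miR-223-3p by 0.87. miR-146a-5p did not pass (0.26, edgeR adjusted p = 0.363), and miR-155-5p and miR-223-5p were too low to test. Erythroid miRNAs (5 of 5 names) held 10.3% to 11.9% in san:san and 2.68% to 4.59% in WT, and lymphocyte miRNAs (2 of 2) 1.38% to 1.92% in san:san and 0.412% to 0.492% in WT. Endothelial miRNAs (2 of 2) held 3.37% to 6.96% in san:san and 1.82% to 3.69% in WT, and liver miRNAs (4 of 4) 0.562% to 0.776% in san:san and 0.584% to 0.786% in WT. Of the liver names, miR-122-3p was higher in san:san by log2 3.10, on few WT counts, miR-194-5p by 1.59 and miR-192-5p by 1.09. miR-122-5p, the most abundant of them, did not pass (0.33, edgeR adjusted p = 0.186). Epithelial (5 of 5) and muscle (3 of 3) miRNAs held at most 0.0127% of counts in a san:san library and 0.0312% in a WT library, and of the epithelial names only miR-205-5p had a count in WT. Depth and the shares of the blood-cell, erythroid and lymphocyte lists separated the genotypes without overlap, so all results below move with them, and their part in these results was not tested.

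Together the 4 rows made up 0.678%, 0.632% and 0.698% of counts in the san:san libraries, against 0.482%, 0.914% and 1.02% in the WT libraries. The mean was 0.669% ± 0.0338 in san:san and 0.806% ± 0.285 in WT (SD, n = 3 each), and the genotypes overlapped (two-sided exact permutation p = 0.4, where 3 against 3 cannot give less than 0.1). In WT replicate 1, the shallowest library, the 4 rows had 60 counts in all, and the 95% Wilson interval of their share reached from 0.375% to 0.620%. Such intervals cover counting error only.

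The levels of the rows are given as CPM scaled by TMM factors, which correct library totals for the most abundant miRNAs. miR-199b-5p, which in human tumour cells represses HES1 of the Notch pathway, was the row with the largest genotype difference. It had 272, 237 and 255 counts in san:san, against 6, 25 and 16 in WT. These correspond to 1715, 1783 and 2612 CPM in san:san, against 417, 694 and 580 CPM in WT. Every san:san library was above every WT library, as it was for 39.8% of all 254 miRNAs tested. The mean was 2037 ± 499 CPM in san:san and 564 ± 139 CPM in WT (SD, n = 3 each). miR-199b-5p rose 3.41-fold in san:san, by log2 1.77 ± 0.29 (SE), with an adjusted p of 1.16e-04 in edgeR's quasi-likelihood test, Benjamini-Hochberg adjusted over 254 miRNAs. With total counts the difference was log2 1.17 (edgeR adjusted p = 0.00277). For background, the same test called 34.6% of tested miRNAs higher and 29.5% lower in san:san. The 3 WT values rest on few reads, with 95% Poisson intervals of 2.20 to 13.1 counts, 16.2 to 36.9 counts and 9.15 to 26.0 counts.

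miR-199a-5p, which represses the hypoxia factor HIF1A in rat heart muscle cells, moved the same way by a smaller amount. It had 228, 209 and 175 counts in san:san, against 11, 34 and 28 in WT. Its level was 1438, 1572 and 1793 CPM in san:san, against 765, 944 and 1014 CPM in WT. The genotypes did not overlap at this scaling. The mean was 1601 ± 179 CPM in san:san and 908 ± 128 CPM in WT (SD, n = 3 each), a 1.72-fold rise of log2 0.78 ± 0.23 (SE, edgeR adjusted p = 0.00955). This call depended on the scaling. It was lost under RLE scaling (log2 0.53, edgeR adjusted p = 0.0679), in DESeq2 (0.53, 0.102), after removal of the 5 highest miRNAs from the library sizes (0.53, 0.0706) and with total counts (0.19, 0.513). It was also lost without WT replicate 2 (0.69, edgeR adjusted p = 0.0640). By share of total counts the genotypes overlapped, with 0.123% in the lowest san:san library and 0.129% in the highest WT library.

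miR-199-3p, which represses the growth kinase mTOR and the receptor MET in human liver cancer cells, did not pass the test. Its reads can come from all 3 miR-199 hairpins. It had 478, 391 and 330 counts in san:san, against 20, 86 and 109 in WT. The level was 3014, 2942 and 3380 CPM in san:san, against 1391, 2387 and 3948 CPM in WT. The san:san values were close together and lay inside the range of the WT values. The mean was 3112 ± 235 CPM in san:san and 2575 ± 1289 CPM in WT (SD, n = 3 each). The log2 difference was 0.22 ± 0.27 (SE) with a 95% interval of -0.37 to 0.82 (edgeR adjusted p = 0.476). The value was -0.11 without WT replicate 1 (edgeR adjusted p = 0.658) and 0.63 without WT replicate 3, where it passed (edgeR adjusted p = 0.0436). Its sign also depended on the scaling, with -0.033 under RLE scaling, -0.015 in DESeq2, -0.036 after removal of the 5 highest miRNAs from the library sizes and -0.38 with total counts, none of which passed.

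miR-214-3p, which represses the chromatin enzyme EZH2 in mouse skeletal muscle, was the only row of the 4 that fell in san:san. It had 283, 178 and 120 counts in san:san, against 23, 119 and 69 in WT. Its level was 1785, 1339 and 1229 CPM in san:san, against 1599, 3302 and 2499 CPM in WT. San:san replicate 1 stood above WT replicate 1, so the genotypes overlapped. The mean was 1451 ± 294 CPM in san:san and 2467 ± 852 CPM in WT (SD, n = 3 each), which is 1.76-fold lower in san:san (log2 -0.81 ± 0.26, SE, edgeR adjusted p = 0.0124). Without WT replicate 2, its highest library, the value was -0.64 and the call was lost (edgeR adjusted p = 0.111). As a share of total counts it did not overlap, with 0.152%, 0.111% and 0.0952% in san:san, against 0.185%, 0.412% and 0.317% in WT. The log2 difference with total counts was -1.40 (edgeR adjusted p = 6.10e-04). At that scaling the same test called 101 of 254 miRNAs lower, and the share of all miRNAs without overlap was not computed. With TMM, where miR-214-3p overlapped, every san:san library was below every WT library for 31.1% of the 254 miRNAs tested.

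**Figure D1:**
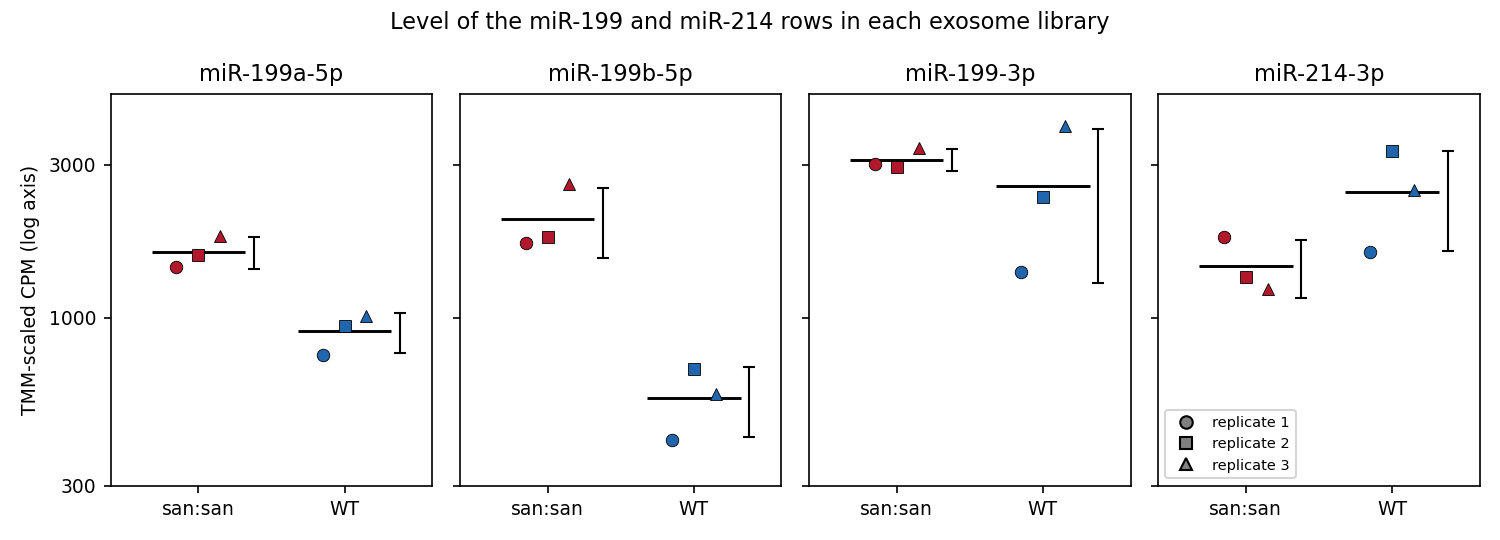
TMM-scaled CPM (log axis) of the 4 distinct rows in each library, san:san in red and WT in blue, with the replicate number as the symbol, the mean as a line and the SD as the bar at its side (n = 3 each). The genotypes do not overlap for miR-199a-5p and miR-199b-5p, and they overlap for miR-199-3p and miR-214-3p.

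The scaling of the libraries shifted all 4 differences together. The median log2 difference of all tested miRNAs was 0.30 with TMM, 0.043 under RLE scaling, 0.023 in DESeq2 and -0.29 with total counts. Set against that median, the 4 rows kept their order and nearly their distance over 7 scalings. This had to hold, because a scaling shifts every miRNA by nearly the same amount, so it is no test of the rows. miR-199b-5p lay 1.46 to 1.51 above it on the log2 scale and miR-199a-5p 0.47 to 0.51 above it. miR-199-3p lay between -0.10 and -0.038 of it, and miR-214-3p between -1.13 and -1.07. With TMM, 62.6% of tested miRNAs had a lower difference than miR-199a-5p and 87.8% a lower one than miR-199b-5p. For miR-199-3p this share was 47.2%, and for miR-214-3p it was 30.3%. Each of the 4 rows thus lay well inside the spread of the table.

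**Figure D2:**
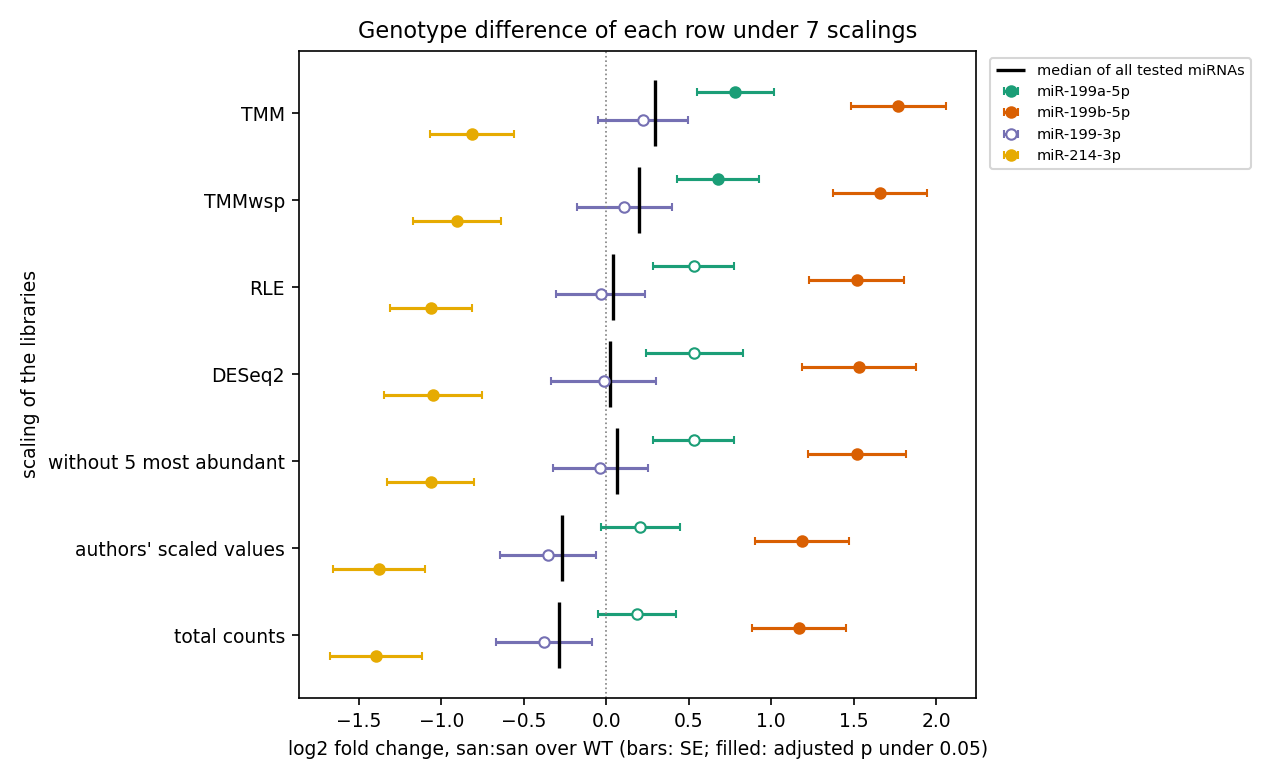
Log2 fold change of san:san over WT (bars, SE) for each of the 4 rows under 7 scalings of the libraries, with filled points past an adjusted p of 0.05 and the black line at the median of all tested miRNAs. miR-199b-5p stays right of 0 and miR-214-3p left of 0 throughout, while miR-199-3p moves across 0 between 0.22 with TMM and -0.38 with total counts.

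The authors' own scaled values, deposited per sample, are close in scale to shares of total counts. miR-214-3p stood at 1640, 1195 and 1030 in san:san, against 1953, 4397 and 3380 in WT. miR-199b-5p stood at 1576, 1591 and 2189 in san:san, against 509, 924 and 784 in WT. For miR-199a-5p the authors' values were 1321, 1403 and 1502 in san:san, against 934, 1256 and 1371 in WT, so on that scale the genotypes overlapped by a single pair of libraries.

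**Figure D3:**
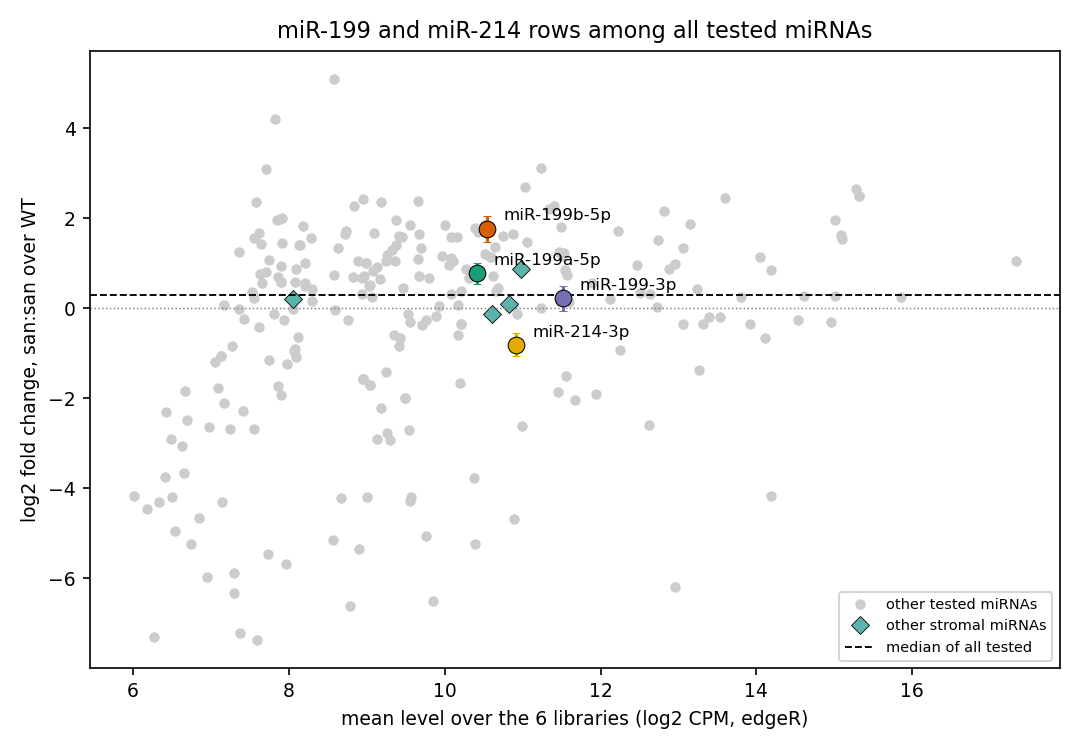
Log2 fold change of san:san over WT against the mean level (log2 CPM) for all 254 tested miRNAs, with the 4 rows labelled (bars, SE), the other stromal miRNAs as diamonds and the median of all tested at the dashed line (0.30). The 4 rows have similar mean levels and spread from 1.77 for miR-199b-5p to -0.81 for miR-214-3p.

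Ranked by level, the order of the rows differed between genotypes. In san:san the order was miR-199-3p at 3112 CPM, miR-199b-5p at 2037 CPM, miR-199a-5p at 1601 CPM and miR-214-3p at 1451 CPM. There only miR-199-3p stood clear of its neighbour, and the other 3 rows overlapped their neighbours in range, although miR-199b-5p was above miR-199a-5p in 3 of 3 libraries. In WT the order was miR-199-3p at 2575 CPM, miR-214-3p at 2467 CPM, miR-199a-5p at 908 CPM and miR-199b-5p at 564 CPM. There the first 2 overlapped, with miR-199-3p above miR-214-3p in 1 of 3 libraries, and both lower steps were clear of overlap. Mature lengths were 22 or 23 bases for the annotated arms, so the rows differ little in length. Whether libraries capture these different sequences equally well was not tested, so the order is one of counts.

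Ratios between rows of the same library do not depend on the scaling, and 7 were compared. They share rows, so they are not independent of each other. How often a ratio of any 2 rows of the table sets the genotypes apart was not computed. For single rows with TMM, every san:san library was above every WT library in 39.8% of the 254 miRNAs tested and below in 31.1%. A pseudocount of 1 count on average, in proportion to library size, was added to each row on the log2 scale. By name, miR-199b-5p over miR-199a-5p compares the chromosome 2 hairpin with the hairpins on chromosomes 1 and 9. These 5p rows are told apart by a single base, so they may exchange reads if the authors' alignment allowed a mismatch, which is not stated. The ratio of counts was 1.19, 1.13 and 1.46 in san:san, against 0.545, 0.735 and 0.571 in WT. miR-199b-5p was therefore the larger 5p row in every san:san library and the smaller one in every WT library. The mean log2 ratio was 0.32 ± 0.19 in san:san and -0.70 ± 0.23 in WT (SD, n = 3 each), a 2.03-fold difference (two-sided exact permutation p = 0.1, adjusted p = 0.117 over the 7 ratios). A p of 0.1 is the smallest that this design allows. As a share of both 5p rows, miR-199b-5p made up 54.4%, 53.1% and 59.3% in san:san, against 35.3%, 42.4% and 36.4% in WT. With so few reads the 95% Wilson interval in WT replicate 1 reached from 17.3% to 58.7% and in WT replicate 2 from 30.6% to 55.1%, which take in some of the san:san values. Over summed reads the share was 55.5% in san:san (exact binomial 95% interval 52.9% to 58.2%) and 39.2% in WT (30.4% to 48.5%). All of these intervals cover counting error only and not the spread between libraries.

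miR-214-3p over miR-199a-5p compares the Mir214 arm with the arm of which a part comes from the neighbouring hairpin in Dnm3os. The ratio of counts was 1.24, 0.852 and 0.686 in san:san, against 2.09, 3.50 and 2.46 in WT. Every san:san library was below every WT library. The mean log2 ratio was -0.15 ± 0.43 in san:san and 1.38 ± 0.38 in WT (SD, n = 3 each), 2.90-fold lower in san:san (exact permutation p = 0.1, adjusted p = 0.117). Over summed reads the ratio was 0.949 in san:san (95% interval 0.846 to 1.07) and 2.89 in WT (2.21 to 3.83). These intervals cover counting error only and not the spread between libraries. Single libraries of both genotypes lay outside them, at 1.24 and 0.686 in san:san and at 2.09 in WT.

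Against miR-199-3p, miR-214-3p was also lower in san:san. The ratio of counts was 0.592, 0.455 and 0.364 in san:san, against 1.15, 1.38 and 0.633 in WT. The lowest WT library, replicate 3, lay just above the highest san:san library. The mean log2 ratio was -1.11 ± 0.35 in san:san and 0.0032 ± 0.59 in WT (SD, n = 3 each), 2.16-fold lower in san:san (exact permutation p = 0.1, adjusted p = 0.117).

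The arm balance of miR-199 was read from both 5p rows over the shared 3p row. The ratio of counts was 1.05, 1.14 and 1.30 in san:san, against 0.850, 0.686 and 0.404 in WT. The 5p arms held more counts than the 3p arm in each san:san library and fewer in each WT library. The mean log2 ratio was 0.21 ± 0.16 in san:san and -0.69 ± 0.55 in WT (SD, n = 3 each), a 1.87-fold difference (exact permutation p = 0.1, adjusted p = 0.117). Taken singly, the 5p rows gave different values. miR-199b-5p over miR-199-3p was 0.569, 0.606 and 0.773 in san:san, against 0.300, 0.291 and 0.147 in WT, without overlap (2.72-fold, exact permutation p = 0.1, adjusted p = 0.117). miR-199a-5p over miR-199-3p was 0.477, 0.535 and 0.530 in san:san, against 0.550, 0.395 and 0.257 in WT, where the genotypes overlapped (log2 difference 0.42, exact permutation p = 0.4, adjusted p = 0.4). Since the 3p row pools 3 hairpins, none of these is the arm ratio of a single hairpin.

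**Figure D4:**
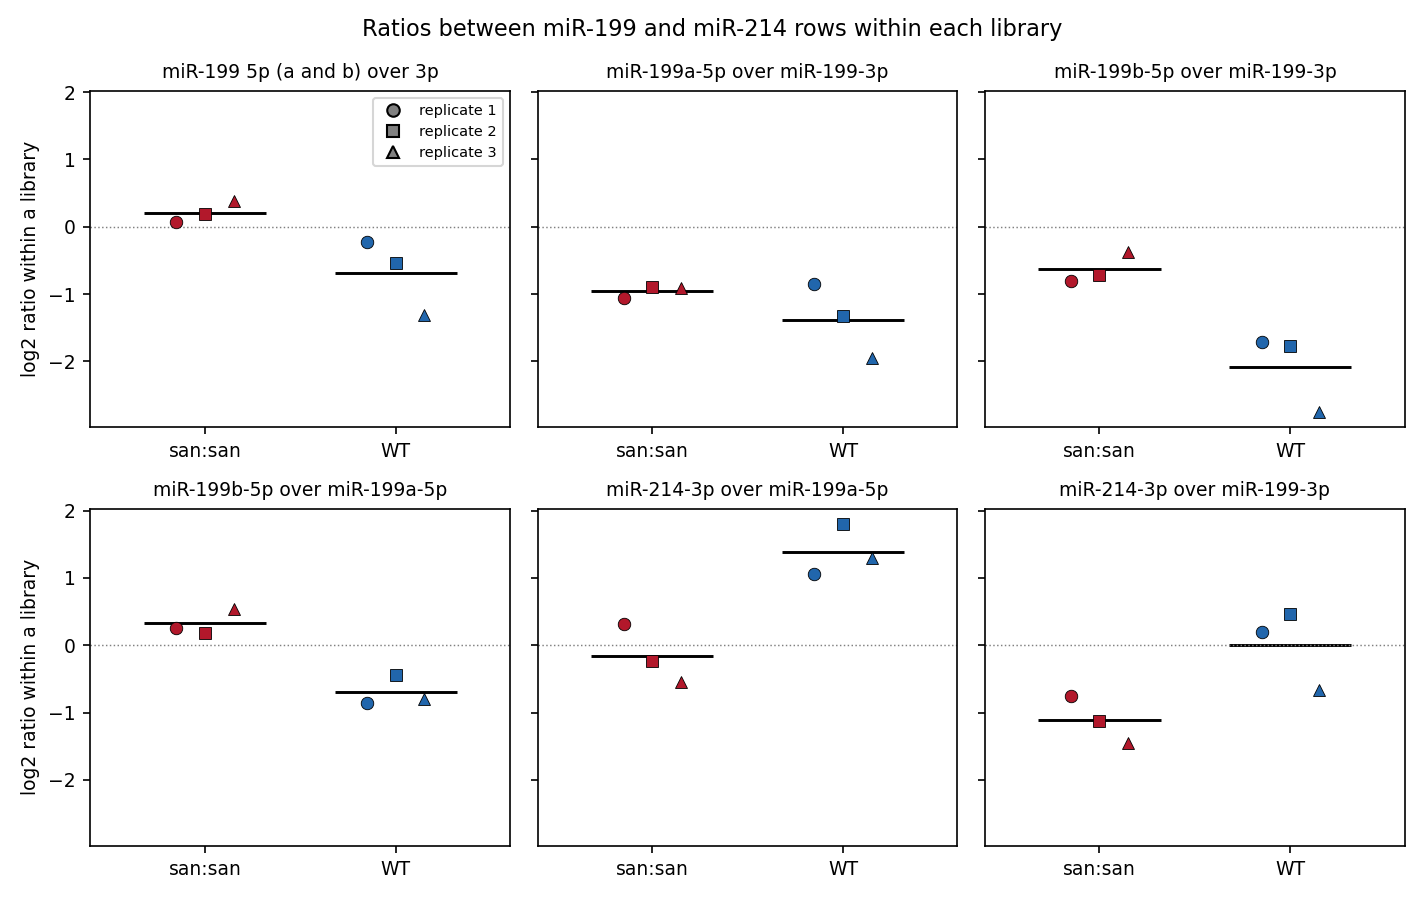
Log2 ratio of counts within each library for 6 pairs of rows, san:san in red and WT in blue, with replicate number as the symbol and the mean as a line. The genotypes are apart in 5 panels and overlap for miR-199a-5p over miR-199-3p, where WT replicate 1 lies above all 3 san:san libraries. The share of other pairs of rows that come apart was not computed.

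A limma test of the 5p to 3p ratio over 49 hairpins with at least 20 counts in every library set these beside other miRNAs. It called 30.6% of hairpins higher and 16.3% lower in san:san. With at least 10 counts of each arm required in each genotype, it called 6 of 25 hairpins higher and 7 lower. Over the 49 hairpins, the miR-199b pair differed by log2 1.45 ± 0.41 (SE, limma adjusted p = 0.0328), a call that was lost without any 1 of the san:san libraries (adjusted p = 0.0692, 0.0948 and 0.112). The miR-199a pair, with the same 3p reads, stood at 0.42 ± 0.39 with a 95% interval of -0.51 to 1.35 (limma adjusted p = 0.385). The miR-214 pair rests on almost no 5p reads. miR-214-5p had 4, 3 and 1 counts in san:san, against 0, 1 and 0 in WT, and was too low for the edgeR test. Over summed reads the 5p to 3p ratio was 0.0138 in san:san (exact 95% interval 0.00592 to 0.0273) and 0.00474 in WT (1.19e-04 to 0.0267). Both intervals cover counting error only, and they overlap. Its limma value was 1.86 (adjusted p = 0.0260) with the scaled pseudocount and -0.20 (adjusted p = 0.731) with a fixed 1, so no direction was detectable at this depth. miR-214-3p was thus nearly the whole of the miR-214 counts in both genotypes.

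Within the 4 rows themselves, the make-up of the counts shifted between miR-199b-5p and miR-214-3p. miR-199b-5p held 21.6%, 23.3% and 29.0% of the 4 rows' counts in san:san, against 10%, 9.47% and 7.21% in WT (two-sided exact permutation p = 0.1, adjusted p = 0.2 over 4 rows). miR-214-3p held 22.4%, 17.5% and 13.6% in san:san, against 38.3%, 45.1% and 31.1% in WT (exact permutation p = 0.1, adjusted p = 0.2). Neither overlapped between genotypes, and how often shares within other sets of rows do so was not computed. miR-199-3p held 37.9%, 38.5% and 37.5% in san:san, against 33.3%, 32.6% and 49.1% in WT (exact permutation p = 1). miR-199a-5p held 18.1%, 20.6% and 19.9% in san:san, against 18.3%, 12.9% and 12.6% in WT, with WT replicate 1 above san:san replicate 1 (exact permutation p = 0.2). The shares add up to a fixed total, so a higher share of some rows requires a lower share of others.

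**Figure D5:**
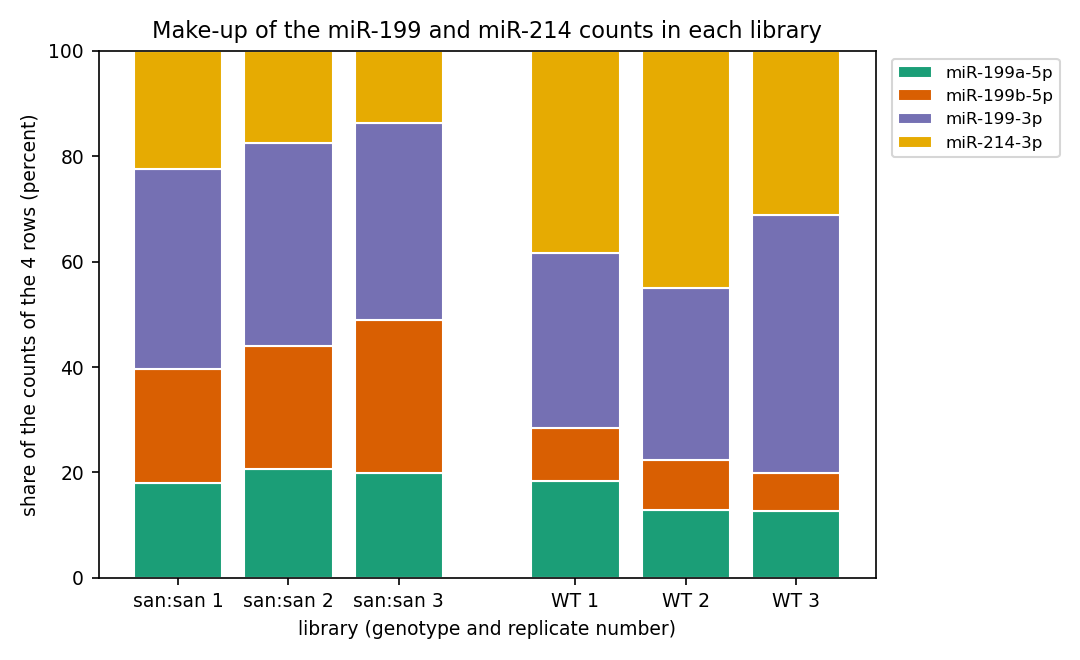
Share of the counts of the 4 rows (percent) that each row held in every library, with the 3 san:san libraries left and the 3 WT libraries right. The miR-199b-5p band is 21.6% to 29.0% in san:san and 7.21% to 10% in WT, and the miR-214-3p band is 13.6% to 22.4% in san:san and 31.1% to 45.1% in WT.

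Of the other miRNAs of mesenchymal cells, 1 of 4 tested names rose, 0 fell and 3 did not pass. The stromal list held 14 names, of which 13 were in the table and 9 passed the filter on low counts, the 5 member names among them. With identical rows merged, so that miR-199-3p counts once, 8 rows were tested, of which 3 were higher, 1 was lower and 4 did not pass in edgeR's test. Over all 254 miRNAs the same test called 34.6% higher, which is near the share of this list, and 29.5% lower. Its median log2 difference was 0.19 with identical rows merged, against 0.30 over all 245 rows then tested. The name that rose and is not a member was miR-140-3p, a miRNA of cartilage, with 362, 304 and 277 counts in san:san, against 9, 60 and 41 in WT. Its level was 2469 ± 319 CPM in san:san and 1259 ± 555 CPM in WT (SD, n = 3 each; log2 0.87 ± 0.27, edgeR adjusted p = 0.0111). The call was lost with DESeq2 (0.0574), with total counts (0.411), after removal of the 5 highest miRNAs from the library sizes (0.0660) and without san:san replicate 3 (0.0566). Its partner arm miR-140-5p had 95 counts over san:san and 17 over WT (log2 0.20, edgeR adjusted p = 0.717).

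The smooth muscle pair of miR-143 and miR-145a, which are made from a shared transcript, did not pass with TMM. miR-143-3p was at 1476 ± 189 CPM in san:san and 1610 ± 142.4 CPM in WT (SD, n = 3 each; log2 -0.13, 95% interval -0.59 to 0.34, edgeR adjusted p = 0.615). It was lower in san:san with total counts (log2 -0.71, edgeR adjusted p = 0.0163). miR-145a-5p was at 1844 ± 12.7 CPM in san:san and 1734 ± 498 CPM in WT (log2 0.10, 95% interval -0.40 to 0.61, edgeR adjusted p = 0.704). miR-145a-3p, miR-152-3p and miR-143-5p, with 16, 15 and 2 counts over san:san against 3, 1 and 0 over WT, were too low to test. The 8 stromal names in the table that are not members held 0.484% to 0.526% of counts in san:san and 0.498% to 0.689% in WT, which overlapped.

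The tested miRNAs with the most similar profile over the 6 libraries were found for each row by the root mean square difference of log2 CPM, after each miRNA was centred on its mean. For miR-199b-5p they were the erythroid miR-451a (difference 0.173), miR-106b-3p (0.174) and miR-30c-5p (0.252). For miR-199a-5p they were miR-16-5p (0.105), miR-379-5p (0.145) and miR-493-5p (0.184). For miR-199-3p they were let-7i-5p (0.255), miR-140-5p (0.269) and miR-410-3p (0.301). For miR-214-3p they were miR-532-3p (0.224), miR-27a-3p (0.228) and miR-10b-5p (0.315). The 3 named for each row were picked as the smallest of all tested non-members, so differences between members cannot be set against them. The median difference to all other tested miRNAs was 0.762 for miR-199a-5p, 1.04 for miR-199b-5p, 0.907 for miR-199-3p and 1.05 for miR-214-3p. Below both medians of the pair lay miR-199a-5p with miR-199-3p (0.386) and with miR-199b-5p (0.545). miR-199-3p with miR-214-3p (0.686) and with miR-199b-5p (0.814) also lay below both. miR-214-3p with miR-199a-5p (0.841) lay below the median of miR-214-3p and above that of miR-199a-5p. miR-214-3p with miR-199b-5p (1.33) lay above both. These values describe 6 libraries of unequal depth and carry no test.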

How the data were processed

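Exosome small RNA from 3 Roquin-1 san:san and 3 WT macrophage samples was analysed, grouped and numbered by their titles. Trizol was used to extract the RNA and Illumina procedures to make the miRNA libraries, per the labels' protocols. The submitters' processing notes name the build mm9. No label or header names the aligner, trimming, mismatch limit or miRNA annotation, and RefSeq and GENCODE positions are of GRCm38.

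The authors deposited whole-number counts per mature miRNA, in which a read that matches several names counts for each, and a scaled signal per sample whose header reads tpm. The deposited signal columns summed to more than TPM values can. They were whole multiples, within 0.1 reads, of 1 read in 100% of values above 0. The recovered reads equalled the counts except for 1 miRNA in WT replicate 2, and the total that the scaling implies was 92.4% to 94.6% of the table's. That scaling was run as an added count test, which called 151 of 254 miRNAs.

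Counts of all 6 libraries were tested in R 4.3.3 with the quasi-likelihood method of edgeR 4.0.16, with filterByExpr at a minimum count of 10, TMM factors and genotype as the only term. It kept 254 miRNAs, of which 163 passed an adjusted p of 0.05. Arm ratios used limma 3.58.1 and DESeq2 1.42.0 was an alternative tool. Other ratios and shares used exact permutation tests (scipy 1.17.1). The edgeR and limma steps were tested on simulated counts. Library totals were 126098 to 185901 counts in san:san and 12447 to 28884 in WT, which limits precision in WT. No pair of libraries of a genotype agreed within sampling noise (chi-square per degree of freedom 3.18 to 18.6). Members, lists and tests were chosen with earlier results of these data known. Named miRNAs are the members, miR-214-5p, the 3 most similar profiles per row (log2 of CPM plus 1), rows of the same seed and up to 4 other stromal names by p. Stromal names too low to test, the further names of the blood-cell list and the single erythroid, lymphocyte and liver names were named after their values were seen.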

Additional observations from a re-analysis of the deposited data

How the results depend on the processing

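miR-199b-5p was higher in san:san in all 15 alternatives that could test it (log2 1.17 to 1.91, edgeR or DESeq2 adjusted p = 7.87e-09 to 0.00277). With at least 20 counts required in every library, neither it nor miR-199a-5p could be tested. miR-214-3p was lower in all 16 (-1.40 to -0.64, adjusted p = 2.07e-04 to 0.111), with -1.08 to -0.64 when a library was left out. miR-199a-5p stayed above 0 in all 15 (0.19 to 0.92, adjusted p = 0.00629 to 0.513). Its call was lost with RLE factors (0.53), DESeq2 (0.53), library sizes without the 5 most abundant miRNAs (0.53), total counts (0.19) and the library sizes of the authors' scaled values (0.21), an alternative chosen after seeing the data. With a library left out it was 0.61 to 0.87. miR-199-3p turned to -0.033, -0.015, -0.036, -0.38 and -0.36 under the same 5 settings in that order, and ran from -0.11 to 0.63 with a library left out. The cause of these changes was not tested. Other named miRNAs that changed sign did so without passing the test. let-7i-5p stood at -0.28 with total counts and -0.26 with the authors' library sizes. miR-140-5p stood at -0.051 (RLE), -0.027 (DESeq2), -0.054 (without the 5 most abundant), -0.40 (total counts), -0.38 (authors' library sizes) and, without WT replicates 1, 2 or 3, at -0.13, -0.013 and 0.65. miR-145a-5p stood at -0.15, -0.15, -0.14, -0.48 and -0.46 under those 5 scalings and -0.13 without WT replicate 3. miR-143-3p stood at 0.022 with no filter. Both identical 3p names count in the stromal list here. The list had 1 of 9 names higher with DESeq2, total counts, the authors' library sizes or without the 5 most abundant. Of all tested miRNAs, 64 of 254, 49 of 254, 50 of 254 and 72 of 245 were then higher, in that order. With the filter of 20 counts the list had 0 of 5 higher, against 23 of 73 of all tested. With a library left out, 2 to 5 of its 8 or 9 names were higher. Without WT replicate 2 it was 2 of 9, against 68 of 290. Without WT replicate 3 it was 5 of 9, against 85 of 287. The list had 2 of 9 lower with total counts or the authors' library sizes, against 101 of 254 at both. With a library left out, 0 to 1 were lower. With the filter of 20 counts, 41 of 73 miRNAs passed. Of hairpins, 13 of 25 passed (6 higher and 7 lower) when both arms had to reach 10 counts in san:san and in WT, and 9 to 26 with a library left out. The miR-199b arm difference was then 1.11 to 1.63 and that of miR-214 1.499 to 2.39, and with a fixed pseudocount of 1 the miR-214 value was -0.20 in both the limma and the permutation comparison. The other 6 ratios kept their sign under every alternative run. miR-214-5p over miR-214-3p could not be computed without a pseudocount.

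Replicate numbers are shared between genotypes, but same-numbered libraries deviated together only in part (r = 0.10, -0.079 and 0.26 for numbers 1, 2 and 3), and san:san replicate 2 correlated best with WT replicate 1 (0.15), so the numbers were not taken as pairs. With the replicate number as a block, 161 miRNAs passed in place of 163, 11 hairpins passed in place of 23, and the miR-199b arm difference was 1.45 (limma adjusted p = 0.0821). The block changed no call of the 4 rows.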
